A study of Mus musculus with 26 samples.

Results

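Cytosolic ribosomal protein genes encode the proteins of the 40S and 60S subunits that translate nuclear-encoded mRNA. They were taken as every row of the gene table whose symbol is that of an Rpl, Rps, Rplp or Rpsa gene, with the paralogs Rpl3l, Rpl22l1 and Rps27l and with Rps4x, and whose mean was at least 1 CPM (counts scaled to each library's total) over all libraries but 1. The names matched 79 of 40413 genes, 48 of the large and 31 of the small subunit. The threshold removed none of them, since the lowest, Rpl22l1, averaged 14.3 CPM. All 79 also passed the filter on low counts that left 15543 genes for testing.

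Left ventricles of BPH/2J mice, an inbred hypertensive strain, and of BPN/3J mice, its normotensive counterpart, were sequenced as polyadenylated RNA, with 1 library a mouse. Treated mice received Cmpd17b, a small-molecule agonist of formyl peptide receptors, intraperitoneally at 50 mg/kg a day, and their controls received vehicle, in each case daily over 28 days. The groups used were BPH/2J on Cmpd17b (BPH_Cmpd17b, 6 libraries), BPH/2J on vehicle (BPH_vehicle, 7), BPN/3J on Cmpd17b (BPN_Cmpd17b, 5) and BPN/3J on vehicle (BPN_vehicle, 7). The series describes the mice as adult, and sex is not given in the sources used here. No allele was engineered, so each strain comparison sets one whole inbred genome against another. The labels place 20 of these libraries in batch 1 and 5 in batch 2, and all 5 BPN_Cmpd17b libraries in batch 1.

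The library labelled BPH_Cmpd17b replicate 7 was left out by the rule of the gene set. Rpl3l, a ribosomal protein gene used mainly in striated muscle, stood at 0.749 CPM there, against 189.5 to 259 CPM in the other 25 libraries (CPM without scaling), and 10 of the 79 genes lay outside the range of those 25. Total counts of the 25 libraries ran from 25476112 to 48648196. The 8 ventricular cardiomyocyte markers summed to between 44046 and 66876 CPM, with none of the 8 under 1 CPM in any group. Of the 25, 6 stood apart in the endothelial, fibroblast, atrial or hepatocyte marker sums. BPN_vehicle replicate 7 had the highest sum of 6 endothelial markers, 1215 CPM against a median of 541 in its group, and BPH_Cmpd17b replicate 6 the highest sum of 7 fibroblast markers, 2014 CPM against a median of 826, with the lowest cardiomyocyte sum of all. BPH_vehicle replicate 7 summed to 215 CPM over 4 atrial markers, against a median of 4.57. The other 3 were BPN_vehicle libraries with hepatocyte markers, which summed to 323, 511 and 59.6 CPM in BPN_vehicle replicates 1, 2 and 4, against at most 9.35 CPM elsewhere. Sums of 5 kidney markers varied widely in every group, from 0.651 to 147.6 CPM over the 25 libraries. They were highest in BPN_Cmpd17b replicate 1 (group median 4.48) and next in BPN_vehicle replicate 4, at 112 CPM. In bulk tissue, fewer cells of a type and less RNA per cell cannot be told apart.

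A ribosome holds 1 copy of nearly every one of these proteins, and cells make them in step. Their mRNAs begin with a terminal oligopyrimidine (TOP) tract, a C followed by a run of pyrimidines, through which mTOR signalling and the LARP1 protein control their translation. In the heart, ribosome production rises as cardiomyocytes enlarge, and mammalian genomes carry many processed pseudogenes of this family, intronless copies made by reverse transcription of the mRNAs.

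The starts of the genes were read from RefSeq promoters of build GRCm38.p6, in which 59 of the 79 genes had an entry. A C followed by at least 4 bases that are each C or T lay exactly at an annotated start, on the strand of the gene, in 13 of the 59 (22.0%). The same was true of 0 of 68 mitochondrial ribosomal protein genes and of 3.01% of 27025 genes. Within 10 bases on either side of the start the motif was found in 62.7%, 45.6% and 34.4% of the same sets. The windows below show 15 bases before the start and 15 from it, with the pyrimidine run from the start in capitals, for genes that carry results further on and have the motif at a start (Rpl35a and Rps21 also have annotated starts without it): chr14:18270972-18271001 (minus strand), chr16:33056467-33056496 (plus), chr7:118116133-118116162 (minus), chr3:90213634-90213663 (minus), chr2:180257364-180257393 (plus) and chr7:141447636-141447665 (plus), in the order of the lines.
Rpl15: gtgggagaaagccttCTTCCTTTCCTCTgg
Rpl35a: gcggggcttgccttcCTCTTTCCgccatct
Rps15a: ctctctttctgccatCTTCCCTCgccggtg
Rps27: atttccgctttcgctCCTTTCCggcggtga
Rps21: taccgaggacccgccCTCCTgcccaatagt
Rplp2: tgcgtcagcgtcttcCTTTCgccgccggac

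Per kilobase of transcript, the genes with the highest mean level over the 25 libraries were Rps15, a 40S head protein, with 538 CPM per kb, then Rpl23a with 468 and Rps14 with 445. On the CPM scale, which grows with transcript length, Rpsa (the laminin receptor precursor of the 40S subunit) had 442, Rplp0 (the base of the ribosomal P stalk) 439 and Rpl4 401 CPM. The lowest by CPM were Rpl22l1 with 14.3, the p53-induced paralog Rps27l with 33.6 and the small 40S protein Rps28 with 42.5 CPM. Together the 79 genes held 1.10% to 1.84% of all counts in a library. That share averaged 1.39% ± 0.186 in BPH_Cmpd17b (SD, n = 6), 1.49% ± 0.168 in BPH_vehicle (n = 7), 1.15% ± 0.0473 in BPN_Cmpd17b (n = 5) and 1.42% ± 0.239 in BPN_vehicle (n = 7). The 5 BPN_Cmpd17b libraries were the most alike, and in the other groups the highest library was 1 that also stood apart in marker sums.

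The strain comparisons asked which of these genes differ between hypertensive and normotensive hearts. Under vehicle 6 of 79 were higher and 2 lower in BPH/2J (edgeR quasi-likelihood F-test, adjusted p under 0.05, with batch as a covariate), 10.1% of the set against 18.9% of all genes tested. Under Cmpd17b, in other mice, 8 were higher and 1 lower, 11.4% against 14.1% of all genes. Both shares are below the background, but with only the groups compared in the fit the second was 25.3% against 19.9% of all genes. In batch 1 alone 6 were higher and 1 lower under vehicle (7.44% and 8.16% of all genes) and 7 higher and 1 lower under Cmpd17b (6.57% and 6.16%). The genes Rpl26, Rpl30, Rpl35a, Rplp0, Rpl15, Rps15a and Rpl29 were called with the same sign in both, which is 7 of 8 (87.5%) of the first list and 7 of 9 (77.8%) of the second. The median log2 difference was -0.03 over the 79 genes under vehicle, with 33 above 0, and 0.12 under Cmpd17b, with 65 above 0, beside medians of 0.00 and 0.01 over all genes. The sign of the median under vehicle was not stable. It was 0.06 without BPN_vehicle replicate 7 (9 genes called higher and 1 lower), 0.02 without BPH_vehicle replicate 1, 0.02 in batch 2 alone and 0.10 by voom. Apart from Rpl26, Rpl30, Rpl35a and Rpl29, the other 75 differences lay between -0.33 and 0.39 under vehicle and between -0.17 and 0.50 under Cmpd17b.

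**Figure D1:**
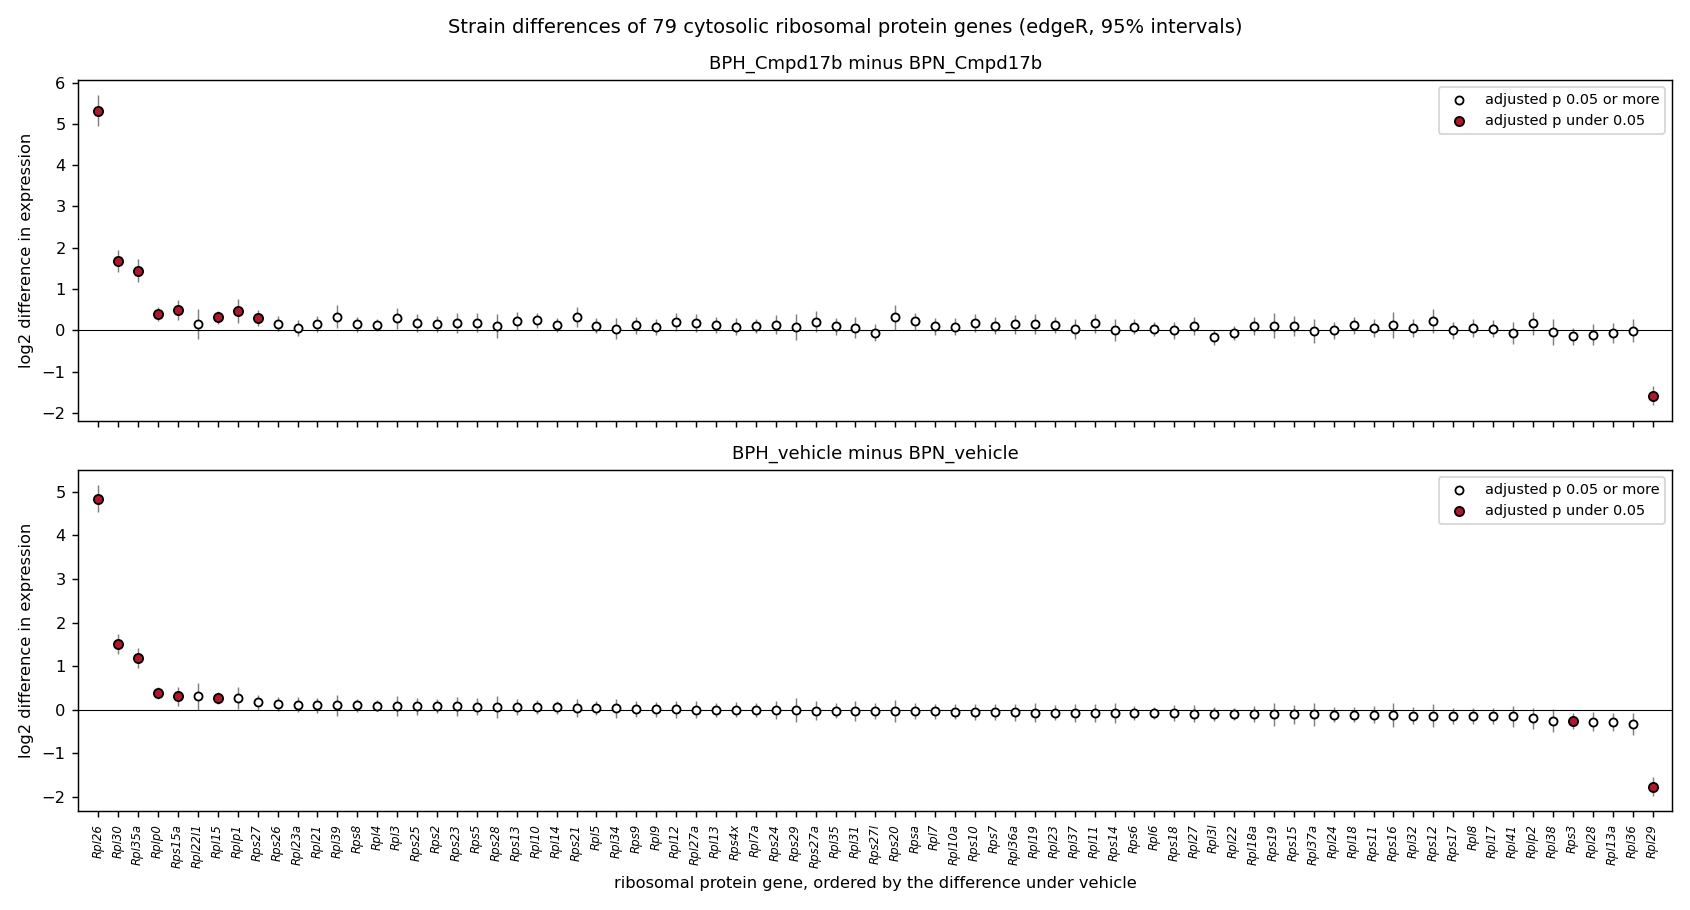
Log2 difference between BPH/2J and BPN/3J (vertical axis) for each of the 79 genes (horizontal axis), under Cmpd17b in the upper panel and under vehicle in the lower. Points are edgeR estimates, bars 95% intervals and filled points have an adjusted p under 0.05. Rpl26, Rpl30 and Rpl35a stand far above 0 and Rpl29 far below it in both panels, while most others lie near 0.

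Rpl26, a 60S protein near the exit of the peptide tunnel, had the largest difference of the set. Its row held 174 to 218 CPM in BPH_Cmpd17b (median 193) and 151 to 229.97 CPM in BPH_vehicle (median 199.5), against 4.50, 5.20, 4.72, 4.69 and 4.45 CPM in the 5 BPN_Cmpd17b libraries and 4.45 to 10.1 CPM in BPN_vehicle (median 6.04). Every BPH/2J library lay above every BPN/3J library. The log2 difference was 4.84 ± 0.15 (SE) under vehicle (adjusted p = 1.04e-19, edgeR) and 5.32 ± 0.18 under Cmpd17b (adjusted p = 9.64e-19).

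The table has another row, Gm15772, for a processed pseudogene of Rpl26 that is annotated with 1 exon at chr5:3236431-3236868 (plus strand, GRCm38, GENCODE M21), outside any other gene, while Rpl26 itself has up to 4 exons at chr11:68901583-68906989. That row behaved the opposite way. It held 0.903 to 1.61 CPM in BPH_Cmpd17b (median 1.01) and 0.630 to 1.45 CPM in BPH_vehicle (median 1.05), against 159.6, 179, 183.5, 186 and 196 CPM in BPN_Cmpd17b and 170.4 to 333 CPM in BPN_vehicle (median 186). Its log2 difference was -7.57 ± 0.18 under vehicle (adjusted p = 5.94e-22, edgeR) and -7.33 ± 0.20 under Cmpd17b (adjusted p = 1.33e-20).

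The coding sequence of Rpl26 and the pseudogene differ at 2 of 438 bases. Counted from the A of the start codon, these are C177T and T288C, with the base of Rpl26 first. The coding windows around them are printed from GENCODE M21 because they hold the only bases at which the coding sequences differ there. Exon junctions and bases outside the coding sequence, where reads could also differ, were not compared. Capitals mark the differing base, and the windows span coding bases 157 to 197 and 268 to 308.
Rpl26, first window: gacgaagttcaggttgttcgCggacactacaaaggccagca
Gm15772, first window: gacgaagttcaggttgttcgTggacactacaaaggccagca
Rpl26, second window: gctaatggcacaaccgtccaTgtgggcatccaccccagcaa
Gm15772, second window: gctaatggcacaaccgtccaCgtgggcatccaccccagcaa

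Added together, both rows gave 175 to 219 CPM in BPH_Cmpd17b (median 194) and 152 to 231 CPM in BPH_vehicle (median 200.5), against 164, 184, 188, 191 and 201 CPM in BPN_Cmpd17b and 180 to 339 CPM in BPN_vehicle (median 192). The groups overlapped, and the summed log2 difference was -0.10 ± 0.11 under vehicle (adjusted p = 0.59, edgeR) and 0.09 ± 0.13 under Cmpd17b (adjusted p = 0.746). The pseudogene row took 0.571% ± 0.144 of the sum in BPH_Cmpd17b and 0.550% ± 0.163 in BPH_vehicle, against 97.5% ± 0.242 in BPN_Cmpd17b and 96.6% ± 1.39 in BPN_vehicle (SD, n = 6, 7, 5 and 7). How the counting divided reads between such rows is not given in the sources used here, and whether the RNA or only the assignment of reads differs between strains was not tested.

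Rpl30, a 60S protein that in mammals also takes part in selenocysteine decoding, repeated this pattern with Gm12191, a 1-exon pseudogene inside Cnot6 at chr11:49678710-49679057 (minus strand, GRCm38). The Rpl30 row held 117 to 143 CPM in BPH_Cmpd17b (median 133) and 131 to 188 CPM in BPH_vehicle (median 155), against 35.7, 40.2, 37.0, 52.0 and 39.1 CPM in BPN_Cmpd17b and 39.9 to 68.2 CPM in BPN_vehicle (median 52.5). Its difference was 1.52 ± 0.11 under vehicle (adjusted p = 1.54e-11, edgeR) and 1.68 ± 0.13 under Cmpd17b (adjusted p = 6.3e-11), with no overlap of the strains in either. Gm12191 differed by -5.87 ± 0.14 under vehicle and -5.74 ± 0.16 under Cmpd17b. The near-identical rows of Rpl30, Gm12191 and a row near 0, took 1.06% of the sum in BPH_Cmpd17b and 1.02% in BPH_vehicle, against 63.5% in BPN_Cmpd17b and 62.7% in BPN_vehicle. The sum with all its near-identical rows differed by 0.11 ± 0.10 under vehicle (adjusted p = 0.507) and 0.24 ± 0.12 under Cmpd17b (adjusted p = 0.21). The only base that separates the 348-base coding sequences is G96A, in capitals in the windows of coding bases 76 to 116 below; the annotated Rpl30 gene also overlaps D730044K07Rik on the other strand, and the counting's use of strand is not known here.
Rpl30: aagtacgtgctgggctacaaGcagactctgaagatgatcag
Gm12191: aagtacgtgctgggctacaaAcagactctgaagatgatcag

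Rps15a, a 40S body protein, showed a smaller version. Its row held 108 to 148.5 CPM in BPH_Cmpd17b (median 126) and 104 to 153 CPM in BPH_vehicle (median 139), against 78.1, 82.3, 90.9, 106 and 89.4 CPM in BPN_Cmpd17b and 82.9 to 129 CPM in BPN_vehicle (median 114). The strains overlapped under vehicle and not under Cmpd17b. The differences were 0.31 ± 0.10 (adjusted p = 0.0334, edgeR) and 0.50 ± 0.12 (adjusted p = 0.00357). The first call was lost, with adjusted p between 0.0568 and 0.089, when any 1 of 7 libraries was left out (BPH_vehicle replicates 2, 4, 6 and 7 and BPN_vehicle replicates 4, 5 and 6). Rps15a-ps6, with 5 mismatches in 393 bases, went the other way, by -5.62 ± 0.19 and -5.81 ± 0.21, as did Rps15a-ps5, by -4.88 ± 0.26 and -5.32 ± 0.32. Summed with its near-identical rows, Rps15a differed by 0.03 ± 0.10 (adjusted p = 0.867) and 0.17 ± 0.11 (adjusted p = 0.377).

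Rpl35a, a 60S protein, kept most of its difference after the same step. It held 82.6 to 119 CPM in BPH_Cmpd17b (median 88.3) and 87.4 to 157 CPM in BPH_vehicle (median 101), against 32.0, 31.4, 29.01, 39.8 and 31.5 CPM in BPN_Cmpd17b and 33.2 to 62.3 CPM in BPN_vehicle (median 47.4). All BPH/2J libraries lay above all BPN/3J libraries. The differences were 1.19 ± 0.11 under vehicle (adjusted p = 4.31e-09, edgeR) and 1.44 ± 0.13 under Cmpd17b (adjusted p = 2.73e-09). Gm10029, with 7 mismatches in 330 aligned bases, differed by -4.09 ± 0.21 and -4.37 ± 0.25. The near-identical rows of Rpl35a took 0.362% of the sum in BPH_Cmpd17b and 0.510% in BPH_vehicle, against 15.9% in BPN_Cmpd17b and 15.3% in BPN_vehicle, and the summed differences were 0.96 ± 0.11 (adjusted p = 1.24e-07) and 1.199 ± 0.128 (adjusted p = 4.31e-08). Further near-identical sequences of Rpl35a are annotated in GENCODE, where 10 were found, and only 2 of them are rows of the table; Gm17106 overlaps the gene on the other strand.

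**Figure D2:**
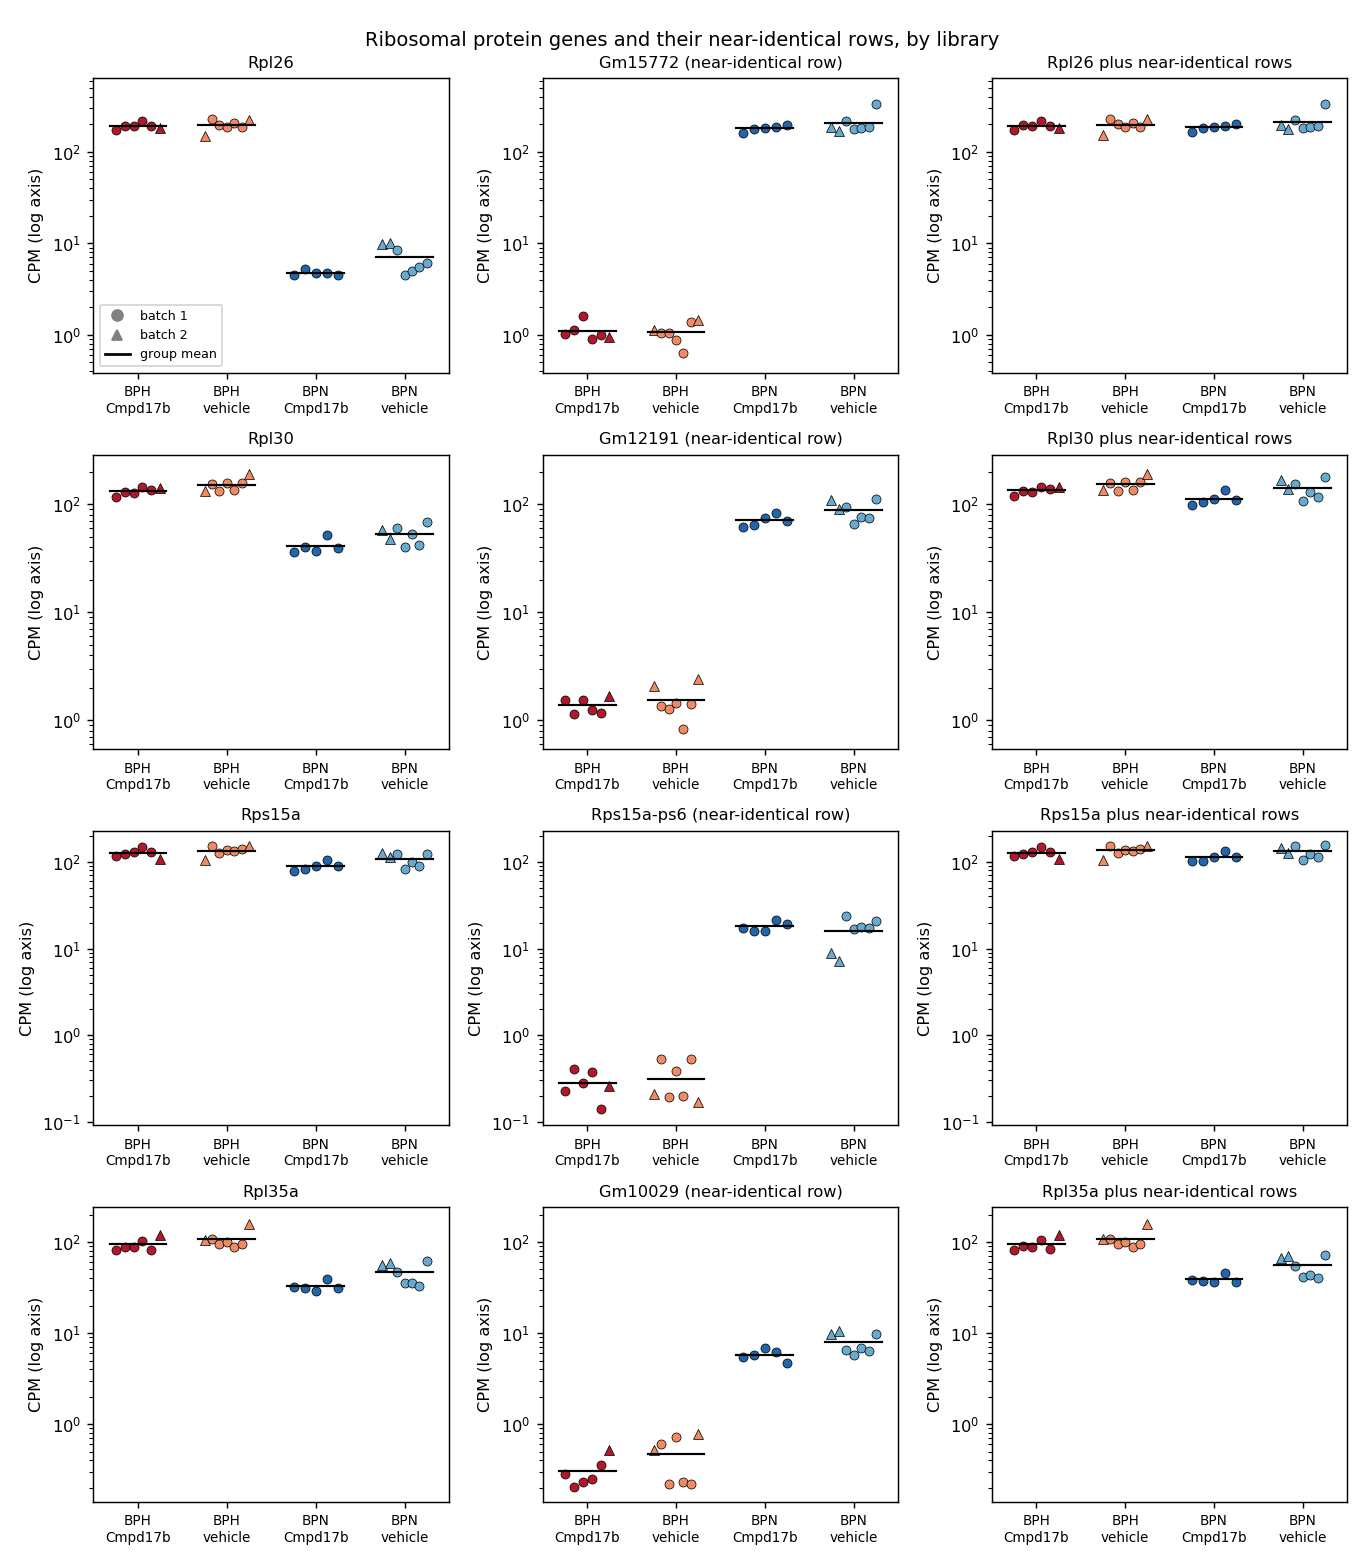
CPM of each library (vertical log axis) for 4 genes (rows of panels): the gene's own row at the left, 1 near-identical row in the middle and the sum with all near-identical rows at the right. Points are libraries (circles batch 1, triangles batch 2), horizontal bars group means, and groups run from BPH_Cmpd17b to BPN_vehicle. For Rpl26, Rpl30 and Rps15a the sums overlap between strains, whereas for Rpl35a the BPH/2J libraries remain above the BPN/3J libraries.

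Across the set, at least 1 sequence of 97% identity or more over 90% or more of the coding length was annotated in GENCODE for 68 of 79 genes. Of these sequences 55 were rows of the table, belonging to 31 genes, and 29 of the 55 rows were tested. In both strain comparisons 7 of the 29 were lower in BPH/2J and 0 higher by edgeR, beside 9.73% lower and 9.16% higher of all genes under vehicle and 6.65% and 7.48% under Cmpd17b. Some copy rows hold a large share in every group. The largest, BC004004 beside Rpl21, was 1 of the 7 called under Cmpd17b, at -0.34 ± 0.11 (adjusted p = 0.0326, edgeR), and had -0.25 ± 0.10 under vehicle (adjusted p = 0.0721). The near-identical rows of Rpl21 took 39.6% and 41.0% of the sum in BPH_Cmpd17b and BPH_vehicle, against 46.7% and 46.8% in BPN_Cmpd17b and BPN_vehicle. Rpl34-ps1 took 51.8% and 51.3% of the Rpl34 sum in BPH_Cmpd17b and BPH_vehicle, against 48.6% and 52.7% in BPN_Cmpd17b and BPN_vehicle, and the Rps2 rows took 23.3% and 23.8% against 22.5% and 26.2%. With every member summed with its near-identical rows, 3 genes were higher and 2 lower under vehicle, 6.33% of the set against 18.9% of all genes. Under Cmpd17b 5 were then higher and 1 lower, 7.59% against 14.1%, so both shares were below the background.

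Rpl29, a 60S protein whose loss slows growth in mice, was the 1 gene strongly lower in BPH/2J. It held 35.6 to 47.2 CPM in BPH_Cmpd17b (median 41.6) and 34.4 to 51.3 CPM in BPH_vehicle (median 43.8), against 116, 125, 133, 122 and 121 CPM in BPN_Cmpd17b and 123 to 204 CPM in BPN_vehicle (median 134). The strains did not overlap in either treatment. The log2 difference was -1.76 ± 0.10 under vehicle (adjusted p = 8.22e-14, edgeR) and -1.58 ± 0.11 under Cmpd17b (adjusted p = 1.44e-11). Its near-identical rows in the table took at most 0.152% of the summed counts on average in any group, and the summed difference under vehicle was again -1.76. Rpl29 has 14 near-identical sequences in GENCODE, of which 3 are rows of the table.

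Among the stalk proteins, which recruit the GTPases of translation, Rplp0 was higher in BPH/2J under both treatments and Rplp1 under Cmpd17b. Rplp0 held 465 to 539 CPM in BPH_Cmpd17b (median 490.3) and 419 to 549.97 CPM in BPH_vehicle (median 491), against 378, 407, 354, 386 and 373 CPM in BPN_Cmpd17b and 330.5 to 428 CPM in BPN_vehicle (median 379). Only the lowest BPH_vehicle library fell within the range of BPN_vehicle. The differences were 0.39 ± 0.07 under vehicle (adjusted p = 8.04e-05, edgeR) and 0.40 ± 0.08 under Cmpd17b (adjusted p = 0.000467). Rplp0 has 3 near-identical sequences in GENCODE, of which 0 are rows of the table.

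Rplp1 held 126 to 275 CPM in BPH_Cmpd17b (median 139), against 90.8, 101, 103, 117 and 103 CPM in BPN_Cmpd17b, with no overlap. Its difference of 0.47 ± 0.14 (adjusted p = 0.0235, edgeR) was no longer called without BPH_Cmpd17b replicate 4 or without BPN_Cmpd17b replicate 1, 2 or 3 (adjusted p between 0.0504 and 0.0684), nor in batch 1 alone (0.43, adjusted p = 0.0597). Under vehicle it differed by 0.27 ± 0.12 (adjusted p = 0.137). Rplp2 had 0.17 ± 0.14 under Cmpd17b and -0.19 ± 0.12 under vehicle, neither called.

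Rpl15, a core 60S protein, differed by little but with little spread. It held 183 to 215 CPM in BPH_Cmpd17b (median 203) and 194 to 240.1 CPM in BPH_vehicle (median 198), against 152, 159, 168, 163 and 154 CPM in BPN_Cmpd17b and 145 to 185 CPM in BPN_vehicle (median 174). The strains did not overlap in either treatment, and the differences were 0.28 ± 0.06 (adjusted p = 0.00212, edgeR) and 0.31 ± 0.07 (adjusted p = 0.00313). Rpl15 has 8 near-identical sequences in GENCODE, of which 1 is a row of the table, and the summed differences were again 0.28 and 0.31. Part of its gene overlaps Nkiras1 on the other strand, so reads of both cannot be told apart if strand was not used.

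Rps3, a 40S protein at the entry of the mRNA channel, held 223 to 325 CPM in BPH_vehicle (median 257), against 269 to 382 CPM in BPN_vehicle (median 315), with overlap. Its difference of -0.26 ± 0.09 (adjusted p = 0.0422, edgeR) was lost when any 1 of 9 libraries was left out, namely BPH_vehicle replicate 1, 3, 4, 5 or 6 or BPN_vehicle replicate 1, 2, 3 or 7 (adjusted p between 0.0501 and 0.112). Rps27, a zinc-binding 40S protein, held 102 to 141 CPM in BPH_Cmpd17b (median 124), against 98.9, 103, 97.7, 104 and 110 CPM in BPN_Cmpd17b. The BPH_Cmpd17b library of batch 2 lay among the BPN_Cmpd17b values. Its difference of 0.30 ± 0.10 (adjusted p = 0.035, edgeR) was lost without BPH_Cmpd17b replicate 1, 2 or 4 or BPN_Cmpd17b replicate 1, 2, 3 or 4 (adjusted p between 0.0504 and 0.0911).

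**Figure D3:**
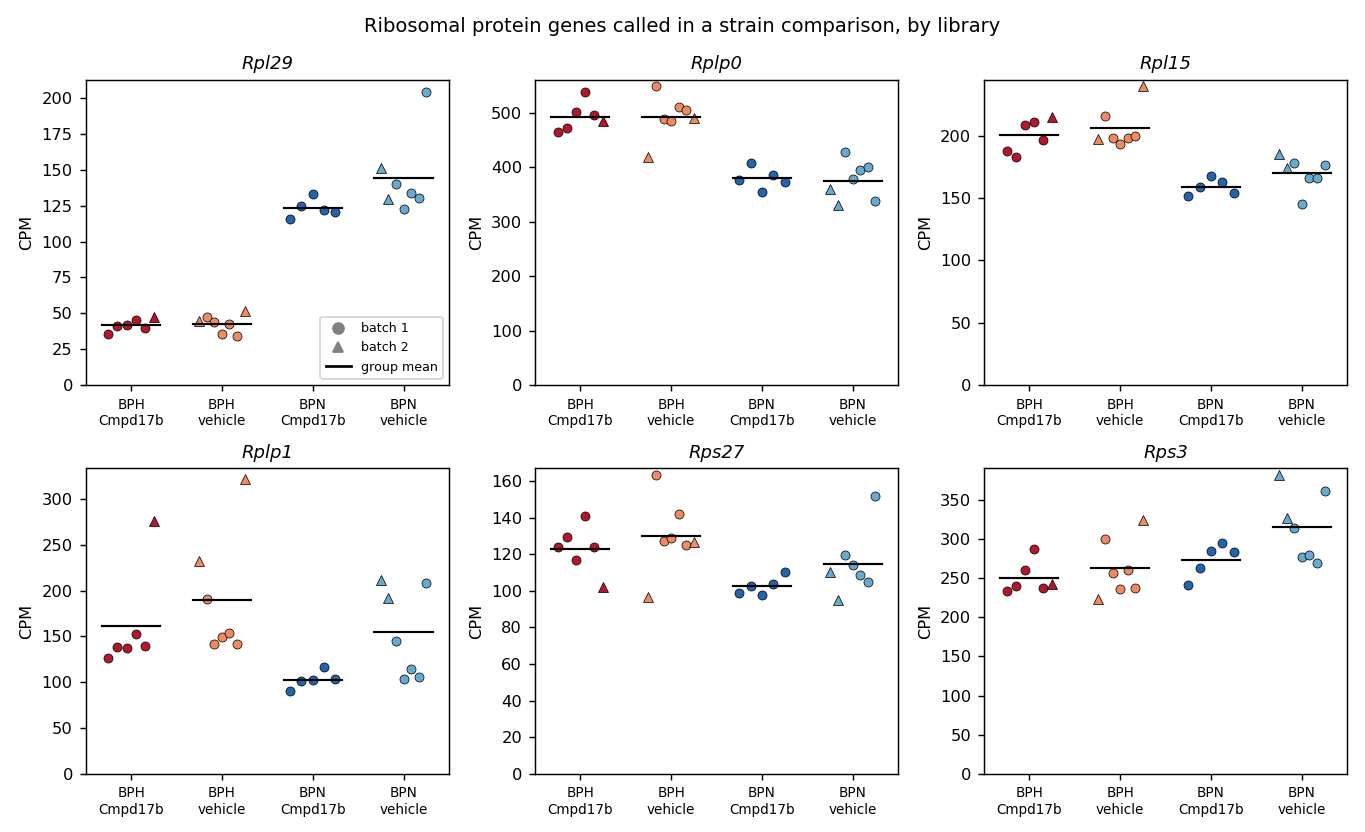
CPM of each library (vertical axis, from 0) for 6 genes called in a strain comparison. Points are libraries (circles batch 1, triangles batch 2) and bars group means. Rpl29 separates the strains widely, Rplp0 and Rpl15 by a smaller step, and the libraries of Rplp1, Rps27 and Rps3 overlap under vehicle.

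Without overlap of the groups, BPH/2J libraries lay above BPN/3J libraries for 4 genes and below them for 1 under vehicle, where 3.4% of all genes were higher, 2.96% lower and 6.36% either. Under Cmpd17b, with fewer libraries, 12 were higher and 1 lower, where 6.09% were higher, 6.5% lower and 12.6% either. Those under Cmpd17b include Rpl11, Rpl3, Rpl4, Rps20 and Rps21, with differences of 0.17, 0.30, 0.13, 0.31 and 0.32 and adjusted p of 0.374, 0.117, 0.245, 0.168 and 0.0704 (edgeR), none of which was called. Rpsa differed by 0.22 ± 0.10 under Cmpd17b and -0.03 ± 0.09 under vehicle, and Rps4x, the X-linked 40S gene, by 0.09 ± 0.10 and 0.00 ± 0.09, with no call.

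The comparisons of Cmpd17b with vehicle asked whether the compound moves these genes within a strain. In BPN/3J, BPN_Cmpd17b and BPN_vehicle differed at adjusted p under 0.05 for 0 of 79 genes and 0% of all genes by edgeR, and DESeq2 and limma voom also called 0 of the 79. At an unadjusted p under 0.05, edgeR put 44 genes lower and 0 higher, against 5.95% lower, 3.74% higher and 9.69% either of all genes. By the same measure DESeq2 put 47 lower (6.35% of all genes) and voom 14 lower (3.36%). The edgeR estimates were below 0 for 78 of 79, from -0.51 to 0.00, with a median of -0.23 (-0.09 by voom) beside -0.01 over all genes. All 31 small-subunit and 47 of 48 large-subunit genes were below 0.

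BPN_vehicle replicate 7, the library with the high endothelial sum, carried much of this. Its erythroid (2417 CPM), mesothelial (9.66 CPM) and Schwann (8.03 CPM) marker sums were also the highest of the 25 libraries. So was its share of counts in mitochondrially encoded genes, 38.7%. Without that library the median was -0.12, with 20 genes lower at an unadjusted p under 0.05 (3.11% of all genes) and 0 called. The count of 44 was also lower without BPN_Cmpd17b replicate 1 (25 genes, 5.69% of all genes) or 2 (28, 5.77%), without BPN_vehicle replicate 3 (27, 5.84%) and with only the groups compared (25, 4.67%), with medians between -0.24 and -0.20. In batch 1 alone the median was -0.24 with 42 such genes (7.58% of all genes), and in batch 1 without that library -0.12 with 16 (2.96%). Against the mean of its own group that library was higher for 71 of 79 genes, by a median of 0.37 on the log2 scale. What part the makeup of that sample has in the difference was not tested.

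Rps21 had the smallest p of the set in BPN/3J. It held 58.9, 58.5, 50.2, 59.8 and 58.3 CPM in BPN_Cmpd17b, against 65.1 to 113 CPM in BPN_vehicle (median 82.5), with no overlap, and differed by -0.45 ± 0.12 (unadjusted p = 0.000677, adjusted p = 0.514, edgeR). Rps20 held 53.5, 55.4, 54.0, 54.1 and 55.2 CPM against 59.0 to 143 CPM, and Rps6, the substrate of S6 kinase, 229, 238, 224, 244 and 247 CPM against 248 to 319 CPM. These were the 3 genes of the set whose groups did not overlap, beside 0.341% of all genes (0.193% lower, 0.148% higher), and none was called. Rpl36 (-0.48 ± 0.14), Rplp2 (-0.45 ± 0.14) and Rpl26 (-0.51 ± 0.16, or -0.25 ± 0.13 summed with its near-identical row) followed, each with an adjusted p of 0.514 except the summed value, 0.53.

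In BPH/2J the estimates were smaller by edgeR, while by voom the medians were close (-0.07, against -0.09 in BPN/3J). BPH_Cmpd17b and BPH_vehicle differed at adjusted p under 0.05 for 0 of 79 genes and 0% of all genes by edgeR, and at an unadjusted p under 0.05 for 0 of the 79, where 1.85% of all genes passed (0.926% higher, 0.92% lower). DESeq2 and voom called 0 too, with 0 and 5 genes lower at an unadjusted p under 0.05 (1.06% and 1.38% of all genes). The median was -0.08 beside 0.00 over all genes, 76 of 79 lay below 0, and the range was -0.24 to 0.01. The median was -0.038 with 63 below 0 without BPH_vehicle replicate 7, -0.047 with 59 below 0 without BPH_vehicle replicate 2, and -0.12 with all 26 libraries. Without BPH_vehicle replicate 1 it was -0.10 with 79 below 0. At an unadjusted p under 0.05, edgeR put 7 genes lower with only the groups compared (2.38% of all genes). That count was 0 in batch 1 alone (0.961%) and 6 in batch 1 without BPN_vehicle replicate 7 (1.69%). It was 4 in the 23 libraries without BPN_vehicle replicate 7 and BPH_Cmpd17b replicate 6 (1.44%). No gene separated the groups, beside 0.0772% of all genes (0.0515% higher, 0.0257% lower).

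The genes of smallest p were Rps27l, Rps28, Rpl37a and Rps29. Rps29, a zinc-binding protein of the 40S head, held 61.9 to 174 CPM in BPH_Cmpd17b (median 64.9) against 72.3 to 215 CPM in BPH_vehicle (median 84.4), and in both groups the batch 2 libraries lay far above those of batch 1. The differences were -0.16 ± 0.09 for Rps27l, -0.23 ± 0.13 for Rps28, -0.22 ± 0.13 for Rpl37a and -0.24 ± 0.14 for Rps29, all with an adjusted p of 1 (edgeR).

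The difference between the Cmpd17b effects, BPH/2J minus BPN/3J, was called for 0 of 79 genes and 0% of all genes (edgeR, with 0 also by DESeq2 and voom). At an unadjusted p under 0.05 edgeR had 1 gene, Rpl26 at 0.48 ± 0.20 (adjusted p = 0.917), where 3.83% of all genes passed (2.3% higher, 1.52% lower). By the same measure DESeq2 had 3 genes higher (2.55% of all genes) and voom 1 (2.12%). Summed with its near-identical row, Rpl26 had 0.19 ± 0.17 (edgeR adjusted p = 0.917), and 0 genes then had an unadjusted p under 0.05. The next were Rplp2 (0.37 ± 0.18), Rps12 (0.37 ± 0.19) and Rpsa (0.24 ± 0.13), with the same adjusted p. The median over the set was 0.14. It was 0.05 without BPN_vehicle replicate 7, 0.09 without BPH_vehicle replicate 1, 0.20 without BPH_vehicle replicate 7 and 0.016 by voom. The count of 1 was 9 without BPH_vehicle replicate 7, 8 without BPN_vehicle replicate 4, 5 without BPH_vehicle replicate 2 and 4 without BPN_vehicle replicate 6. It was 3 without BPH_Cmpd17b replicate 1, BPN_vehicle replicate 2 or BPN_Cmpd17b replicate 2, 2 without replicate 5 of BPH_vehicle or BPN_vehicle, and 0 without BPH_vehicle replicate 1 or BPN_vehicle replicate 3. In the fits that left out 1 library, 1.87% to 3.07% of all genes were higher by the same measure. The smaller estimates in BPH/2J are therefore not shown to differ from those in BPN/3J.

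**Figure D4:**
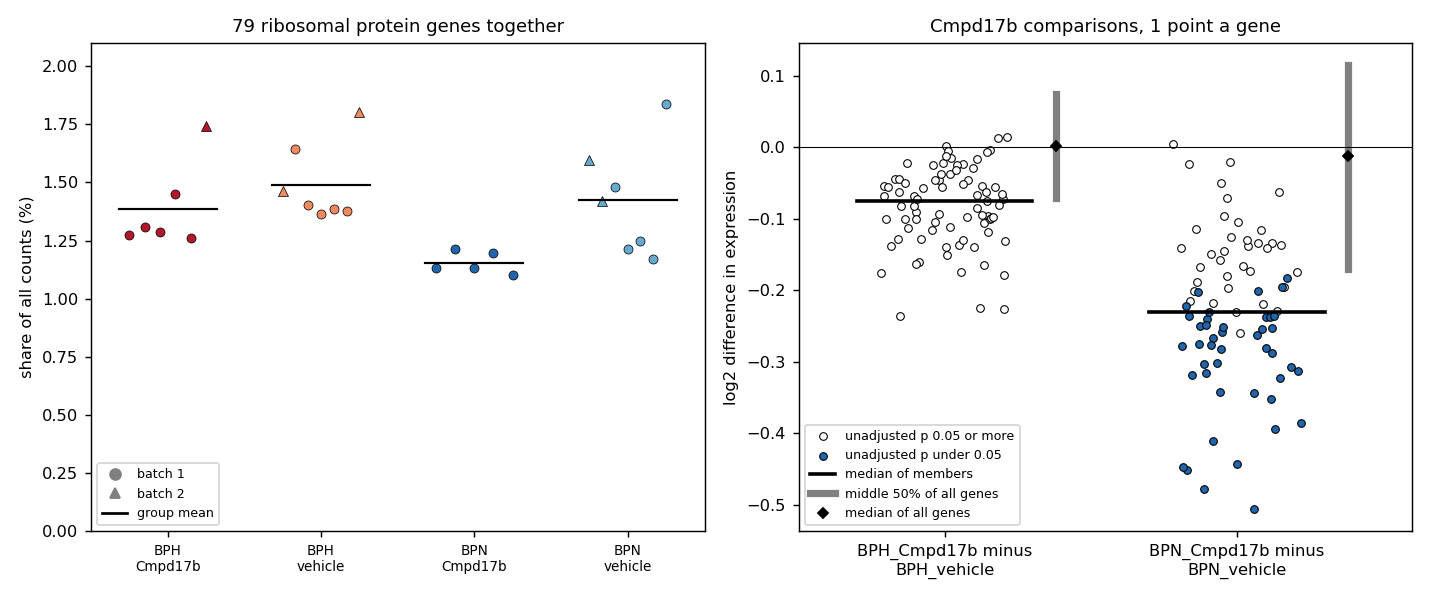
Left, share of all counts held by the 79 genes in each library (vertical axis, percent), with circles for batch 1, triangles for batch 2 and bars for group means. Right, log2 difference of each gene (1 point a gene) in BPH/2J and in BPN/3J, with the median of the 79, and beside it the median and the middle 50% of all genes tested; filled points have an unadjusted p under 0.05. The points of BPN/3J centre on -0.23 and those of BPH/2J on -0.08.

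Some members swap with a paralog inside the ribosome, and the ratio within a library does not depend on scaling. Rpl3l replaces Rpl3 in adult heart and skeletal muscle. The log2 ratio of Rpl3l to Rpl3 counts ran from -0.02 to 0.89 in BPH_Cmpd17b (median 0.86), against 1.07, 1.13, 1.17, 1.13 and 1.39 in BPN_Cmpd17b. All 5 BPN_Cmpd17b libraries lay above all BPH_Cmpd17b libraries. The means were 0.69 and 1.18, a difference of -0.49 (exact permutation test, two-sided, p = 0.00433, 0.0519 after Benjamini-Hochberg adjustment over 12 comparisons). That p is the smallest that groups of 6 and 5 libraries allow, so by itself the comparison could not pass 0.05 after adjustment over 12. Without BPH_Cmpd17b replicate 6 the difference was -0.35 (exact permutation p = 0.00794, again the smallest possible for the groups left).

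Under vehicle the ratio ran from 0.71 to 0.91 in BPH_vehicle (median 0.74), against 0.29 to 1.33 in BPN_vehicle (median 1.08), and 5 of 7 BPN_vehicle libraries lay above every BPH_vehicle library. The difference of -0.21 had an exact permutation p of 0.161 (adjusted 0.483), and without BPN_vehicle replicate 7, the library at 0.29, it was -0.32 (p = 0.00466). Neither gene was called on its own: Rpl3 differed by 0.30 ± 0.12 under Cmpd17b (adjusted p = 0.117, edgeR) and 0.09 ± 0.11 under vehicle, and Rpl3l by -0.17 ± 0.09 and -0.09 ± 0.08. Cmpd17b moved the ratio by -0.10 in BPH/2J (exact permutation p = 0.725) and by 0.18 in BPN/3J (p = 0.313), neither beyond the spread.

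The ratio of Rpl22l1 to Rpl22, paralogs of a 60S protein, averaged -2.64 in BPH_Cmpd17b and -2.94 in BPN_Cmpd17b, a difference of 0.30 (exact permutation p = 0.0433, adjusted 0.26), and -2.50 in BPH_vehicle and -2.90 in BPN_vehicle, a difference of 0.39 (p = 0.074, adjusted 0.296). The ratio of Rps27l to Rps27 averaged -2.03 in BPH_Cmpd17b and -1.82 in BPN_Cmpd17b (difference -0.21, exact permutation p = 0.247) and -1.88 in BPH_vehicle and -1.68 in BPN_vehicle (-0.20, p = 0.404). No comparison of these pairs passed after adjustment. The ratio tests had no batch term, and values for batch 1 alone are given further on. Neither ratio moved with Cmpd17b beyond the spread in either strain (exact permutation p between 0.474 and 0.798).

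The spread of a gene varied with its length. The SD of log2 CPM within groups and batches ran from 0.07 for Rpl4 and 0.09 for Rpl15 and Rplp0 up to 0.31 for Rpl22l1. Its median of 0.17 was below the 0.22 over all genes (which was computed with a pseudocount). The sets were not matched for expression level, so these medians do not show less spread than in genes of like level. Across the 79 genes, Spearman's rho between coding length and that SD was -0.67 and Pearson's r -0.61, a description over genes that share the same libraries. In the 20 genes with coding lengths of 78 to 369 bases the median SD was 0.23, against 0.13 in the 19 genes of 627 to 1260 bases.

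The same short genes carried most of the batch difference. Batch 2 exceeded batch 1 by a median of 0.50 on the log2 scale in the 20 shortest genes and by -0.06 in the 19 longest. Rps29 differed most, by 1.27, and Rpl22l1 by 1.12. The estimates for Cmpd17b in BPN/3J ran the same way, from a median of -0.30 in the shortest to -0.14 in the longest, and in BPH/2J from -0.15 to -0.04. Among the batch 2 libraries, all but BPH_vehicle replicate 1 stood apart in marker sums, so batch and sample makeup cannot be fully told apart. RNA quality values are not among the sources used here. The part of length, batch or makeup in the Cmpd17b estimates was not tested.

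**Figure D5:**
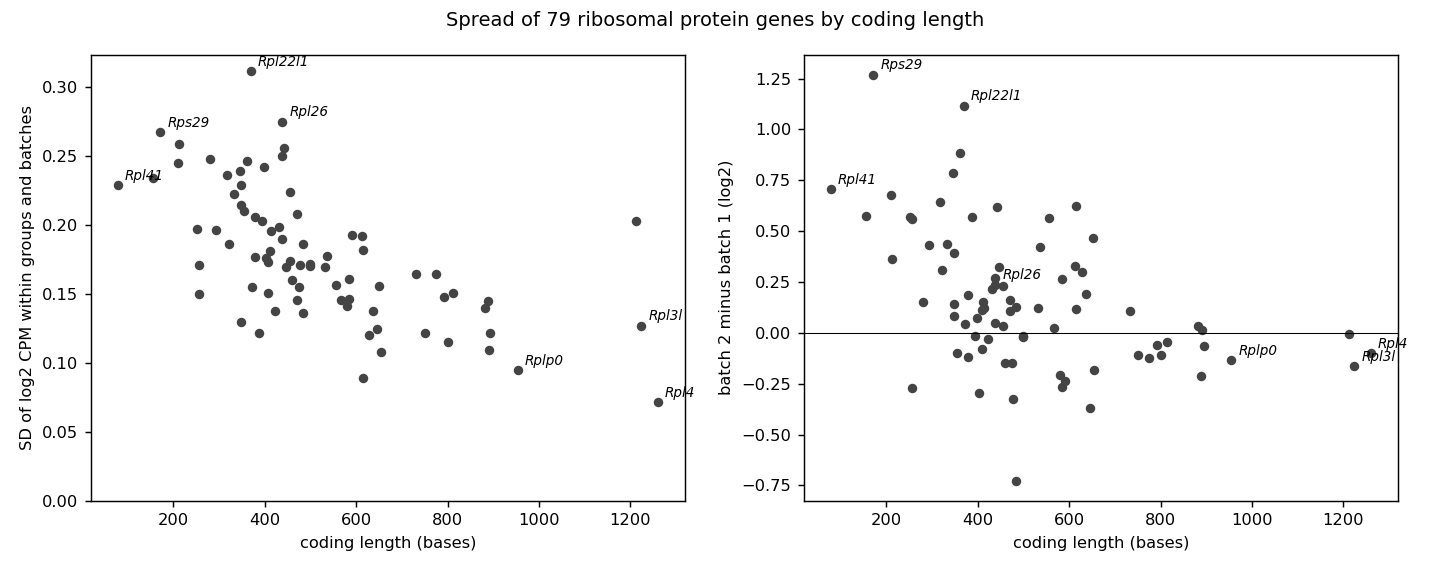
Left, SD of log2 CPM within groups and batches against coding length in bases for the 79 genes; right, log2 difference between batch 2 and batch 1 for the same genes. Short genes such as Rps29 (batch difference 1.27) lie highest and long ones such as Rpl4 (SD 0.07) lowest.

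Genes that make, regulate or resemble the cytosolic ribosome were counted on lists chosen with earlier results of these data known. Among 77 mitochondrial ribosomal protein genes, 5 were higher and 8 lower in BPH_vehicle than in BPN_vehicle, and 3 and 3 in BPH_Cmpd17b than in BPN_Cmpd17b, with medians of -0.08 and -0.07. That is 16.9% and 7.79% of the list, against 18.9% and 14.1% of all genes. Mrpl15 differed most, by 0.81 ± 0.08 (adjusted p = 5e-09, edgeR) and 0.75 ± 0.09 (3.37e-07). Mrps36 went the other way, by -0.48 ± 0.08 (3.02e-05) and -0.52 ± 0.09 (7.73e-05).

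Of 50 ribosome biogenesis genes 8 were higher and 2 lower under vehicle and 2 and 2 under Cmpd17b, 20% and 8% of the list against the same 18.9% and 14.1%. Imp4, of the small-subunit processome, rose by 0.42 ± 0.06 (adjusted p = 8.11e-06, edgeR) and 0.42 ± 0.07 (8.41e-05), and Polr1b, the second subunit of RNA polymerase I, fell by 0.84 ± 0.11 (1.02e-06) and 0.59 ± 0.12 (0.000887). Of 30 initiation factors 0 were higher and 3 lower in each comparison (10% of the list), led by Eif3j1 at -0.93 ± 0.11 (1.1e-07) and -1.04 ± 0.12 (1.66e-07).

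Of 36 genes of growth signalling 2 were higher and 4 lower under vehicle and 1 and 2 under Cmpd17b, 16.7% and 8.33% of the list, both below the shares of all genes. Mtor, the kinase upstream of TOP mRNA translation, was lower by -0.43 ± 0.08 (adjusted p = 0.000165, edgeR) and -0.45 ± 0.09 (0.000587), and Rragd, a GTPase that brings mTORC1 to the lysosome, by -0.66 ± 0.16 (0.00334) and -0.87 ± 0.18 (0.000918). Of 22 elongation factor and other TOP mRNA genes 3 were higher and 1 lower, then 1 and 1 (18.2% and 9.09%); the lower one was Gas5, a snoRNA host gene, at -1.66 ± 0.16 (8.07e-09) and -1.66 ± 0.19 (1.43e-07). Of 7 other cytosolic ribosomal protein genes outside the name rule 1 was called (14.3%), Rps4l, a paralog of Rps4x, which was higher by 0.92 ± 0.21 (0.00255) and 1.37 ± 0.25 (0.000276). No gene of these lists was called in either Cmpd17b comparison, in which the medians of the mitochondrial ribosomal list were -0.07 in BPH/2J and -0.08 in BPN/3J and those of the initiation and biogenesis lists lay between 0.00 and 0.03.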

How the data were processed

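Left ventricular polyadenylated RNA was sequenced as paired reads, per the labels. The submitters' processing notes name Trim Galore 0.6.7, STAR 2.7.9a and the mouse build GRCm39 (mm39), with no settings. Which program counted the reads, whether it used strand and which annotation it used is not stated there. The values the authors deposited are expected counts per gene, of which 93.3% were whole. They were rounded to whole counts. Groups, batch, dose and duration were taken from the labels and the series' design; 0 of 67 pairs of libraries within groups were identical. P-values measure the spread between libraries taken as separate mice.

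Counts were scaled by TMM and tested with edgeR 4.0.16 (R 4.3.3; filterByExpr on 4 groups, robust quasi-likelihood F-test, batch term, 25 libraries in 1 fit, with the batch effect for BPN_Cmpd17b taken from the remaining groups). Adjustment was over 15543 genes (Benjamini-Hochberg, threshold 0.05). CPM are TMM-scaled unless stated, each SE was derived from the log2 difference and its F statistic, and 95% intervals follow from it. Paralog ratios used log2 of counts plus 0.5 and exact permutation tests with no batch term. Coding sequences from GENCODE M21 (GRCm38) were compared with blastn 2.17.0; sequence starts are from RefSeq (GRCm38.p6). The GRCm38 positions were not used to count reads. In counts simulated without a batch effect, 200 genes were changed by 1 on the log2 scale in either direction. Of these, 79% were recovered for the strain comparison under vehicle (15330 genes, 13 false calls) and 73% for Cmpd17b in BPN/3J (15341 genes, 7 false calls). Smaller changes were not simulated. Mitochondrially encoded genes were the 37 rows on chromosome MT in the RefSeq table.

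The genes, lists and tests were chosen with earlier results of these data known. Named genes are those called, up to 10 a direction by smallest p, or else the 4 of smallest p, with the paralogs, stalk genes, Rpsa, Rps4x and the extremes of level; genes that did not overlap between groups, and near-identical rows, were named after their values were seen. Alternatives were other scalings, filters, batch handling, sets of libraries, DESeq2 1.42.0 and limma 3.58.1 (voom with quality weights); summing near-identical rows, leaving out 2 libraries that stood apart and batch 1 without 1 of them were chosen after the data were seen.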

Additional observations from a re-analysis of the deposited data

Results flagged for a closer look

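Within groups of 5 to 7 libraries, 28 of 116 groups of values held a library set apart by Dixon's test at its 95% level. These groups of values share the same libraries, and many of the genes were chosen by their results. The count can therefore not be set against the 1 in 20 of separate tests. BPH_Cmpd17b replicate 6, the only batch 2 library of its group used and the one with the high fibroblast sum, had 11 of them. It held 115 CPM of Rpl22 (next 83.6), 22.8 of Rpl22l1 (13.9), 158 of Rpl3 (133), 128.3 of Rpl36 (89.3), 275 of Rplp1 (153), 118 of Rps21 (80.7), 40.2 of Rps27l (30.4), 63.0 of Rps28 (36.1) and 174 of Rps29 (71.2). Its log2 ratio of Rpl3l to Rpl3 was -0.019 (next 0.67) and that of Rps27l to Rps27 -1.34 (next -1.94).

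BPH_vehicle replicate 7, also of batch 2 and with the high atrial sum, had 7. It held 128.4 CPM of Rpl22 (next 95.5), 38.3 of Rpl22l1 (17.7), 157 of Rpl35a (108), 179 of Rpl36 (122), 141 of Rps21 (96.8) and 53.5 of Rps27l (38.5), and its log2 ratio of Rpl22l1 to Rpl22 was -1.75 (next -2.43). BPN_vehicle replicate 7, of batch 1 and with the high endothelial sum, had 4: 204 CPM of Rpl29 (next 151), 230.1 of Rplp2 (160.1), 237 of Rps12 (164) and 152 of Rps27 (119). What part batch or the makeup of these samples has in the values was not tested.

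Single values stood apart in other libraries. BPN_Cmpd17b replicate 4 held 52.0 CPM of Rpl30 (next 40.2) and 39.8 of Rpl35a (32.0), and BPN_Cmpd17b replicate 3 had the lowest Rps21, 50.2 CPM (next 58.3). Rpl4 was highest at 446 CPM in BPH_Cmpd17b replicate 4 (next 414), and lowest at 358 CPM in BPH_vehicle replicate 1 (next 413) and at 360.4 CPM in BPN_Cmpd17b replicate 1 (next 382).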

How the results depend on the processing

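No paired analysis was made, since each library is a separate mouse and the labels match no mice with each other. The replicate numbers used here only name libraries. Rpl26, Rpl30, Rpl35a and Rpl29 kept their strain calls in every fit that left out 1 library. Under vehicle, 1 gene was called lower in place of 2 with no filter on low counts, no batch term, batch 1 alone (with or without BPN_vehicle replicate 7), batch 2 alone, all 26 libraries, only the groups compared or voom, and 5 by DESeq2. With 1 library left out that count ran from 1 to 5, with 5 without BPH_vehicle replicate 7 or BPN_vehicle replicate 4 or 6. The count higher under vehicle was 3 in batch 2 alone and with near-identical rows summed, and 19 by voom, in place of 6; of all genes 3.01%, 9.15% and 13.01% were then higher, in place of 9.16%. Under Cmpd17b it was 5 with all 26 libraries or summed rows, 13 in 23 libraries and in batch 1 without BPN_vehicle replicate 7, 14 by voom and 19 with only the groups compared, in place of 8. Of all genes 4.15% (26 libraries), 7.48% (summed), 9.47%, 9.28%, 9.60% and 9.86% were then higher, in place of 7.48%. Summing turned the Rpl26 difference under vehicle to -0.10, while that of Rpl35a stayed at 0.96. The cause of these changes was not tested.

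In batch 1 alone the Rpl3l to Rpl3 ratio differed by 0.046 between BPH_Cmpd17b and BPH_vehicle. The Rpl22l1 to Rpl22 ratio there differed by 0.40 between strains under vehicle (exact permutation p = 0.0397), by 0.24 under Cmpd17b (p = 0.0794) and by 0.13 with Cmpd17b in BPN/3J. The Rps27l to Rps27 ratio there differed by -0.35 between strains under Cmpd17b (exact permutation p = 0.0159) and by 0.10 with Cmpd17b in BPN/3J. With all 26 libraries it differed by 0.088 between strains under Cmpd17b and by 0.15 with Cmpd17b in BPH/2J. Leaving out 1 library gave -0.32 to -0.15 for Rpl3l to Rpl3 between strains under vehicle and -0.14 to 0.044 for Cmpd17b in BPH/2J. It gave 0.27 to 0.48, 0.23 to 0.36 and -0.13 to 0.035 for Rpl22l1 to Rpl22 between strains under vehicle, under Cmpd17b and for Cmpd17b in BPN/3J, and -0.35 to -0.15 for Rps27l to Rps27 between strains under Cmpd17b.

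Of counts other than mitochondrial, the set held 2.09% in BPH_Cmpd17b, 2.20% in BPH_vehicle, 1.80% in BPN_Cmpd17b and 2.15% in BPN_vehicle, and with near-identical rows added 1.21% of all counts in BPN_Cmpd17b. Groups of 5 to 7 libraries limit what the Cmpd17b comparisons can resolve: the median 95% interval reached 0.20 either side of the estimate in BPH/2J and 0.22 in BPN/3J on the log2 scale.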
